A study of Mus musculus with 16 samples.

Results

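Upper-layer neuron genes were followed through the cerebral cortex at E15.5 in 3 groups of mice, ctrl, cKO (*Knl1* deleted) and dKO (*Knl1* and *Trp53* deleted). The set is made of 8 genes of the 51912 listed in the count data, *Cux1*, *Cux2*, *Pou3f1*, *Pou3f2*, *Pou3f3*, *Rorb*, *Unc5d* and *Mdga1*. They were chosen by name, as genes of the callosal neurons of the upper cortical layers, and each was found under 1 identifier. Of the 8, 7 had counts, and *Pou3f3* was listed at 0 in all 16 libraries. RNA-seq libraries with unique molecular identifiers were made by Click-seq, a method that ends cDNA at random with azido nucleotides, from rRNA-depleted total RNA of whole micro-dissected cortex.

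The 7 ctrl mice carried *Knl1* (labelled Casc5, its earlier name) as wild type in 5 cases and as heterozygotes in 2, T4 and T5. In the 4 cKO mice, *hGFAP-Cre* deleted *Knl1*, and in the 4 dKO mice it deleted *Knl1* and *Trp53* together. All mice were taken at embryonic day 15.5, and both sexes were in each group. Whether the ctrl mice carried Cre is not said in the labels, and a strain is not named. The transgene acts in dorsal cortical progenitors and their offspring, so that interneurons, vessels and microglia of the same tissue keep both genes. *Knl1* was at 58.2 ± 14.9 CPM in cKO (SD, n = 4), 49.8 ± 11.7 in dKO (SD, n = 4) and 62.8 ± 13.5 in ctrl (SD, n = 7). *Trp53* was at 28.3 ± 4.26 CPM in cKO, 25.1 ± 5.26 in dKO and 30.5 ± 10.6 in ctrl. The 3 groups overlapped for both genes, and counts over the whole gene in all cells of the tissue do not check a deletion.

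Total counts ran from 399832 to 3266227 per ctrl mouse, from 4178461 to 8800987 per cKO mouse and from 552186 to 5396803 per dKO mouse, so every cKO mouse was deeper than every ctrl mouse. Libraries S2 and S2b of 1 cKO mouse were summed, since their counts differed by little more than sampling noise (chi-square per degree of freedom of 1.14, where any other pairing of cKO libraries gave 3.56 to 27.4). Mice of litters 1 and 2 gave 3 cKO and 4 ctrl, litter 3 gave 2 dKO and 3 ctrl, and litter 4 gave 2 dKO and 1 cKO with no ctrl. Batch 3 held all dKO mice, 3 ctrl mice and 1 cKO mouse. Levels are CPM, counts scaled to library size with TMM factors over the 15 mice. In these bulk samples, fewer cells of a type and less RNA per cell cannot be told apart.

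Excitatory neurons of the cortex are born in sequence from radial glia and from intermediate progenitors, deep layers first and upper layers later. Those made around this age mostly settle in the upper layers and send axons to the other hemisphere through the corpus callosum. The transcription factors CUX1, CUX2, POU3F1, POU3F2 and POU3F3 act in these neurons and their precursors, and RORB is known for layer 4. UNC5D, a netrin receptor family member that also binds FLRT proteins, and MDGA1, a GPI-anchored adhesion protein, sit on the surface of migrating upper-layer cells.

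Members of one family are near-copies in the parts that bind DNA. This matters for counts, because reads from such a stretch could be placed on the wrong gene, or left out as not uniquely aligned. The stretch of 120 coding bases in which *Pou3f1*, *Pou3f2* and *Pou3f3* are most alike encodes part of the POU-specific domain. Capitals mark the 19 positions at which the 3 genes are not identical, in the order *Pou3f1* (chr4:124658511-124658630, plus strand), *Pou3f2* (chr4:22487151-22487270, minus strand) and *Pou3f3* (chr1:42698148-42698267, plus strand) of GRCm38:
Pou3f1: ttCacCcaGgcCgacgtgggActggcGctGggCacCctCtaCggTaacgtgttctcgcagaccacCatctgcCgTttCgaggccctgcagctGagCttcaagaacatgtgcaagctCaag
Pou3f2: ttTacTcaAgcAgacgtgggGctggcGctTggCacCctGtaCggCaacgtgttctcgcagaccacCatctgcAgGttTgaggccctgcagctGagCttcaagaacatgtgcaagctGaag
Pou3f3: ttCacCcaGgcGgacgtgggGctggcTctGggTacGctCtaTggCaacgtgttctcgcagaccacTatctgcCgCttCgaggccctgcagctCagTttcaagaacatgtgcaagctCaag
The longest run of identical bases was 38 between *Pou3f2* and each of the other two over their whole transcripts, and 29 between *Pou3f1* and *Pou3f3*. The same comparison for part of a CUT domain of *Cux1* (chr5:136312683-136312802) and *Cux2* (chr5:121873697-121873816), both on the minus strand, gave 17 differing positions of 120, in capitals:
Cux1: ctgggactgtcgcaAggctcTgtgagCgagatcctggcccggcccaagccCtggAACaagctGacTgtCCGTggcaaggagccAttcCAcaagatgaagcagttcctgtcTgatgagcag
Cux2: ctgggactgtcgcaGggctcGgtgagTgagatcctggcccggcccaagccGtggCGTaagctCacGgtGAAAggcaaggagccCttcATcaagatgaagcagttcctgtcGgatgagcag
No run over 23 bases was shared by the transcripts of *Cux1* and *Cux2*. Longer runs were shared by members of different families, up to 54 bases between *Cux1* and *Mdga1*. How many reads could fall within a shared run was not tested.

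*Pou3f3* (ENSMUSG00000045515, chromosome 1 of GRCm38 from 42695768 to 42703176) is a single-exon POU factor. Its 0 does not measure its transcript. The gene lies wholly inside AC122898.1 (42694925 to 42744791), a noncoding gene of the same strand that shares no exon base with it. AC122898.1 had between 15 and 330 counts in every mouse. Over the whole table, 394 protein-coding genes lie wholly inside another listed gene of their strand and inside none of the opposite strand, and only 3 of them, or 0.761%, had any count. Of 789 genes that lie only inside a gene of the opposite strand, 573, or 72.6%, had a count, as had 16821 of 20662 that lie inside no other gene. *Svet1*, a noncoding gene inside *Unc5d* on its strand and an old marker of upper-layer precursors, was likewise at 0 in every mouse, as were *Sox2* and *Neurod1*, which also lie inside such genes. The 0 therefore gives no upper limit for *Pou3f3*. The counts behave as if reads were assigned over whole gene bodies by strand, introns included. The authors' feature setting is not given in the sources used here.

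**Figure D1:**
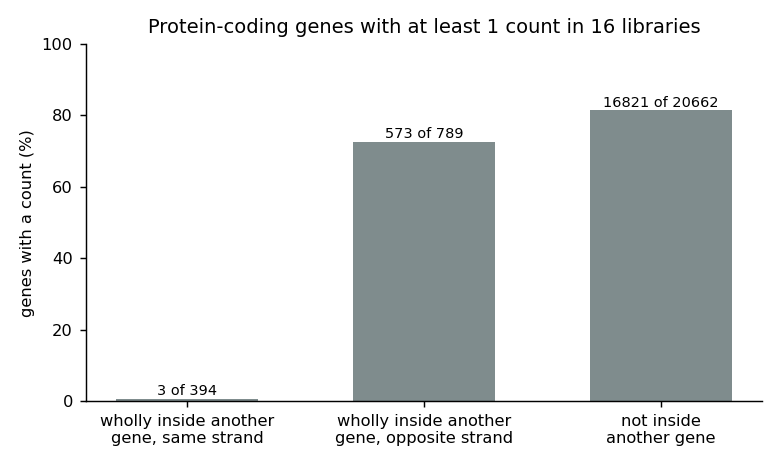
Share of protein-coding genes with at least 1 count over the 16 libraries (y axis, percent), by position relative to other listed genes (bars, with the number of genes above each). Of genes wholly inside another gene of their strand, as *Pou3f3* is, 0.761% had a count, against 72.6% inside a gene of the opposite strand and 81.4% inside no gene.

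The members differ much in how far introns could add to their counts. *Pou3f1* and *Pou3f2* have 1 exon and no intron. Exons make up 1.61% of the 573 kb of *Unc5d*, 6.27% of the 319 kb of *Cux1*, 5.20% of the 194 kb of *Cux2*, 6.13% of the 181 kb of *Rorb* and 6.69% of the 142 kb of *Mdga1*. Genes nested on the same strand cover 3.54% of *Cux1* and 1.85% of *Unc5d*. Per kilobase of exon, the ctrl level was highest for *Unc5d*, at 143 ± 17.7 CPM (SD, n = 7). *Cux2* followed at 29.7 ± 5.08 CPM per kilobase of exon, *Cux1* at 27.4 ± 2.10, *Pou3f2* at 19.5 ± 4.50, *Mdga1* at 14.1 ± 2.32, *Rorb* at 11.6 ± 2.89 and *Pou3f1* at 3.32 ± 2.73. The mice of *Unc5d* and of *Pou3f1* were apart from those of their neighbours in this order, and all other neighbours overlapped. Per kilobase of gene span the order was another one. *Pou3f2* then led with 19.5 ± 4.50 CPM per kilobase, before *Pou3f1* (3.32), *Unc5d* (2.31 ± 0.285), *Cux1* (1.72 ± 0.132), *Cux2* (1.55 ± 0.264), *Mdga1* (0.946 ± 0.155) and *Rorb* (0.713 ± 0.177). The levels of the intron-bearing members are thus known relative to themselves across mice and not against the POU genes.

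None of the 8 genes reached an FDR below 0.05 between cKO and ctrl in the edgeR likelihood ratio test, where 83 of 51912 genes, or 0.16%, were called. Among the 7 measured members, 3 had values above 0 and 4 below, with a median log2 fold change of −0.21, against 0.03 over all genes with at least 10 counts. The spread within the set was from −0.44 for *Pou3f1* to 0.51 for *Rorb*, so the set did not move one way. At an unadjusted p below 0.05 stood *Rorb*, *Mdga1* and *Unc5d*, 3 of the 7, where 10.2% of genes with at least 10 counts were called at that level. Of these 3, *Rorb* was higher and the other two were lower.

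**Figure D2:**
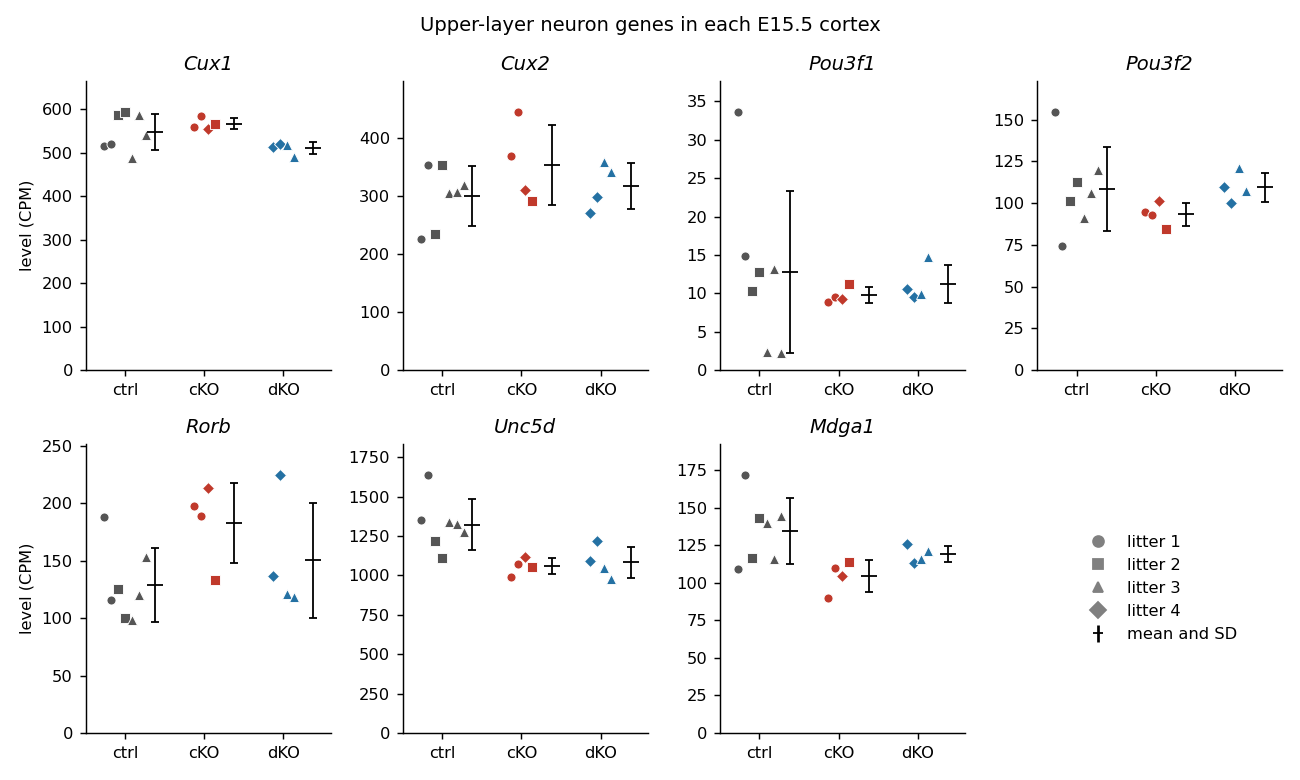
Level of each measured member in CPM (y axes from 0) in every mouse of the 3 groups (x axis). Each point is a mouse, its shape gives the litter, and the bars beside each group are the mean and SD. *Unc5d* of cKO mice lies between 993 and 1116 CPM, at the lower end of ctrl (1110 to 1639), while 3 of the 4 cKO mice of *Rorb* lie between 189 and 213 CPM, above every ctrl mouse.

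*Unc5d* (ENSMUSG00000063626, chromosome 8 from 28646717 to 29219636) was the most deeply counted member, with 573 to 9241 counts per mouse. Ctrl mice 2, 6, S3, S1, T3, T4 and T5 were at 1354, 1639, 1110, 1216, 1338, 1323 and 1276 CPM. The cKO mice 5, 7, S2 and F3 were at 993, 1073, 1051 and 1116 CPM. Only ctrl mouse S3 reached down into the cKO range. The means were 1322 ± 163 in ctrl (SD, n = 7) and 1058 ± 51.2 in cKO (SD, n = 4), a log2 fold change of −0.34 (standard error, SE, 0.12, 95% interval from −0.58 to −0.10, edgeR FDR = 0.55). The two-sided exact permutation p over mice was 0.0121, where 4 mice against 7 allow no less than 0.00606. All 3 cKO mice that had ctrl littermates were below each of them, a pattern met by 3.89% of genes with at least 10 counts.

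*Mdga1* (ENSMUSG00000043557, chromosome 17 from 29827949 to 29970087) was lower by a like amount. Ctrl mice 2, 6, S3, S1, T3, T4 and T5 were at 109, 172, 143, 117, 140, 116 and 144 CPM, and cKO mice 5, 7, S2 and F3 at 90.0, 110, 114 and 104 CPM. All 4 cKO mice lay below every ctrl mouse but mouse 2, which was below cKO mice 7 and S2. The log2 fold change was −0.39 (SE 0.13, 95% interval from −0.65 to −0.13, edgeR FDR = 0.43), and the two-sided exact permutation p was 0.0182. Within litters, 2 of 3 cKO mice were below every ctrl littermate.

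*Rorb* (ENSMUSG00000036192, chromosome 19 from 18930605 to 19111196) encodes a nuclear receptor and went the other way. Ctrl mice 2, 6, S3, S1, T3, T4 and T5 were at 188, 116, 99.9, 125, 98.0, 120 and 153 CPM. The cKO mice 5, 7, S2 and F3 were at 197, 189, 133 and 213 CPM. Mouse 2 was alone among ctrl mice near the level of cKO mice 5, 7 and F3. The cKO mouse S2 lay within the ctrl range, below ctrl mice 2 and T5. The log2 fold change was 0.51 (SE 0.16, 95% interval from 0.20 to 0.82, edgeR FDR = 0.229), and the two-sided exact permutation p was 0.0303. Each of the 3 cKO mice with ctrl littermates was above all of them, with mouse 7 at 189 CPM only just above mouse 2 at 188. Of genes with at least 10 counts, 8.88% had that pattern.

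For these 3 genes the call depended on the test or on 1 mouse. *Rorb* was at an FDR of 0.00158 in edgeR's quasi-likelihood F test (0.678% of genes called), of 0.00446 in edgeR without cKO mouse S2 (log2 fold change of 0.65, 0.719% of genes called) and of 0.0127 without ctrl mouse 2 (0.64, 0.171% called). *Unc5d* (FDR = 0.00629, log2 fold change of −0.39) and *Mdga1* (FDR = 0.0497, log2 fold change of −0.44) were called by DESeq2, which called 0.559% of the genes it tested. *Rorb* was at an FDR of 0.05 or above in DESeq2 and the other two in the quasi-likelihood F test. The signs of all 3 were the same in all 26 alternatives.

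Batch 1 alone, with 3 cKO and 3 ctrl mice, gave log2 fold changes of −0.39 for *Unc5d* (SE 0.17), −0.46 for *Mdga1* (0.18) and 0.41 for *Rorb* (0.22), each at an edgeR FDR of 1. Litters 1 and 2 with litter as a covariate gave −0.36 (SE 0.13), −0.39 (0.14) and 0.37 (0.13), at an edgeR FDR of 0.702, 0.702 and 0.742. The sizes were therefore near those of all mice. With each mouse thinned to the smallest total, 399832 counts, which takes away the difference in depth, the values were −0.45, −0.68 and 0.42. This was 1 random draw that dropped most counts of every cKO mouse, and other draws were not tried. The sizes after thinning are therefore less precise than those from all counts.

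**Figure D3:**
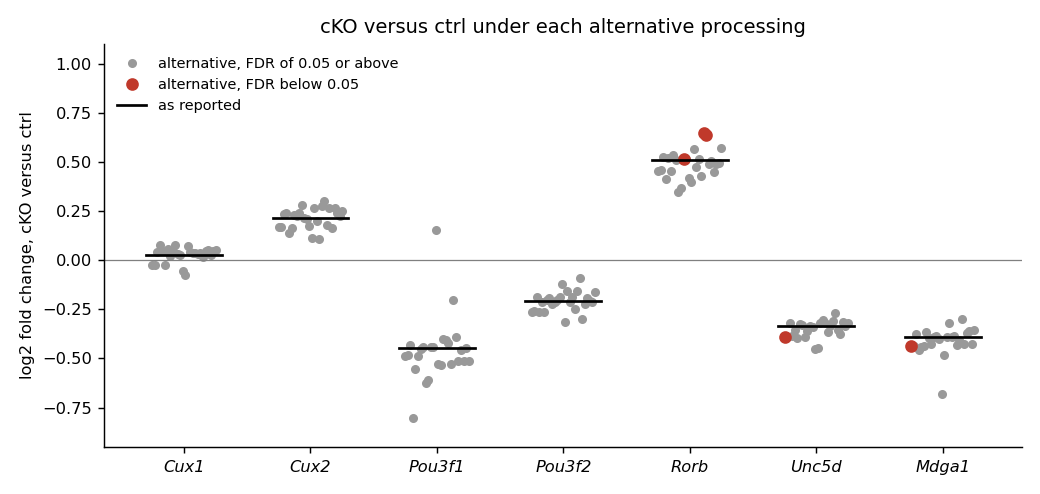
Log2 fold change of each measured member in cKO versus ctrl (y axis) under each alternative processing (points) and as reported (black lines). Red points mark alternatives with an FDR below 0.05, which were 3 for *Rorb*, 1 for *Unc5d* and 1 for *Mdga1*, while *Cux1* had points on both sides of 0.

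For the CUX factors no difference beyond the spread was detected. *Cux1* (ENSMUSG00000029705, chromosome 5 from 136248135 to 136567490) was at 516, 521, 594, 588, 488, 586 and 542 CPM in the ctrl mice (2, 6, S3, S1, T3, T4, T5 in that order), and at 560, 585, 567 and 556 CPM in cKO mice 5, 7, S2 and F3. All cKO mice fell inside the ctrl range. The log2 fold change was 0.03 (SE 0.11, 95% interval from −0.19 to 0.24, edgeR FDR of 1), and it was below 0 with RLE size factors (−0.02), with total counts alone (−0.08) and with DESeq2 (−0.02). A change of *Cux1* RNA beyond 1.18-fold upward or 0.879-fold downward lies outside this interval. *Cux2* (ENSMUSG00000042589, chromosome 5 from 121856366 to 122050102) was at 225, 353, 352, 235, 306, 307 and 318 CPM in the same ctrl mice and 368, 444, 291 and 310 CPM in the cKO mice. Mice 5 and 7 were above every ctrl mouse, and S2 and F3 lay within the ctrl range. Its log2 fold change was 0.22 (SE 0.14, 95% interval from −0.07 to 0.50, edgeR FDR of 1), and 0.11 without cKO mouse 7. Gm16599, a gene antisense to *Cux1* that shares 394 exon bases with it, had 0 to 86 counts per mouse.

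The POU factors were less precisely known. *Pou3f2* (ENSMUSG00000095139, chromosome 4 from 22482780 to 22488366) was at 155, 74.4, 113, 102, 91.0, 106 and 120 CPM in the ctrl mice (2, 6, S3, S1, T3, T4, T5 in that order), and at 94.7, 93.0, 84.4 and 101 CPM in cKO mice 5, 7, S2 and F3. Its cKO mice lay within the ctrl range. The log2 fold change was −0.21 (SE 0.15, 95% interval from −0.50 to 0.08, edgeR FDR of 1), and −0.09 without ctrl mouse 2. *Pou3f1* (ENSMUSG00000090125, chromosome 4 from 124656807 to 124660655) had only 1 to 99 counts per mouse. It was at 33.6, 14.9, 12.8, 10.3, 2.33, 13.2 and 2.22 CPM in the same ctrl mice, from 1 count each in T3 and T5, and between 8.94 and 11.3 CPM in cKO. A log2 fold change of −0.44 (SE 0.27, 95% interval from −0.97 to 0.08, edgeR FDR of 1) became −0.20 without ctrl mouse 2 and 0.15 after thinning to equal totals. Counting error alone gives a coefficient of variation of 56.5% for *Pou3f1* in ctrl, where 82.5% was observed, against 3.06% and 12.3% for *Unc5d*. Gm2164, which is antisense to *Pou3f1* and shares 330 exon bases with it, had more counts than *Pou3f1* in all 15 mice. Its log2 fold change in cKO was 0.35 (SE 0.16, edgeR FDR = 0.852).

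In dKO, in which *Trp53* was deleted along with *Knl1*, none of the 8 genes was called against ctrl, where 0.0501% of genes were. The 7 measured members had a median log2 fold change of −0.10, against 0.03 over all genes with at least 10 counts. At an unadjusted p below 0.05 stood 1 member, *Unc5d*, where 6.88% of genes with at least 10 counts did. *Unc5d* was at 1044, 978, 1090 and 1216 CPM in dKO mice T2, T8, F1 and F7. All but F7 were below every ctrl mouse. The log2 fold change was −0.28 (SE 0.13, 95% interval from −0.54 to −0.02, edgeR FDR of 1), and the two-sided exact permutation p was 0.0121. In litter 3, dKO mice T2 and T8 were both below their 3 ctrl littermates (log2 fold change of −0.36 within the litter, SE 0.15, edgeR FDR of 1). For 2 such mice, 7.03% of genes with at least 10 counts had this pattern.

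All 5 mutant mice with ctrl littermates, 3 cKO and 2 dKO, were thus below each of those littermates for *Unc5d*. Of 17859 genes with at least 10 counts, 64, or 0.358%, had this pattern, which was looked for after the values were seen. No other member had it, and 0 to 2 of the 5 mutants were below all littermates for the rest. The cKO and dKO comparisons use the same ctrl group, but here each mutant was set against its own litter, and no ctrl mouse was used for both.

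The dKO level of *Rorb* rested on 1 mouse. T2, T8 and F1 were at 121, 118 and 136 CPM, within the ctrl range, and F7 was at 225 CPM, the highest of all 15 mice. The log2 fold change against ctrl was 0.27 (SE 0.18, edgeR FDR of 1) and 0.0059 without F7. In litter 3 it was −0.03. *Mdga1* was at 116, 121, 126 and 113 CPM in T2, T8, F1 and F7, inside the ctrl range (log2 fold change of −0.18, SE 0.14, edgeR FDR of 1). *Cux1*, at 517, 491, 513 and 521 CPM, gave −0.10 (SE 0.12) and *Cux2*, at 358, 342, 271 and 298 CPM, gave 0.07 (SE 0.14). *Pou3f2*, between 100 and 121 CPM, gave 0.03 (SE 0.16), and *Pou3f1*, between 9.51 and 14.8 CPM, gave −0.27 (SE 0.33). These 4 were at an edgeR FDR of 1. Within batch 3 the value of *Pou3f1* was 0.51 (SE 0.51).

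**Figure D4:**
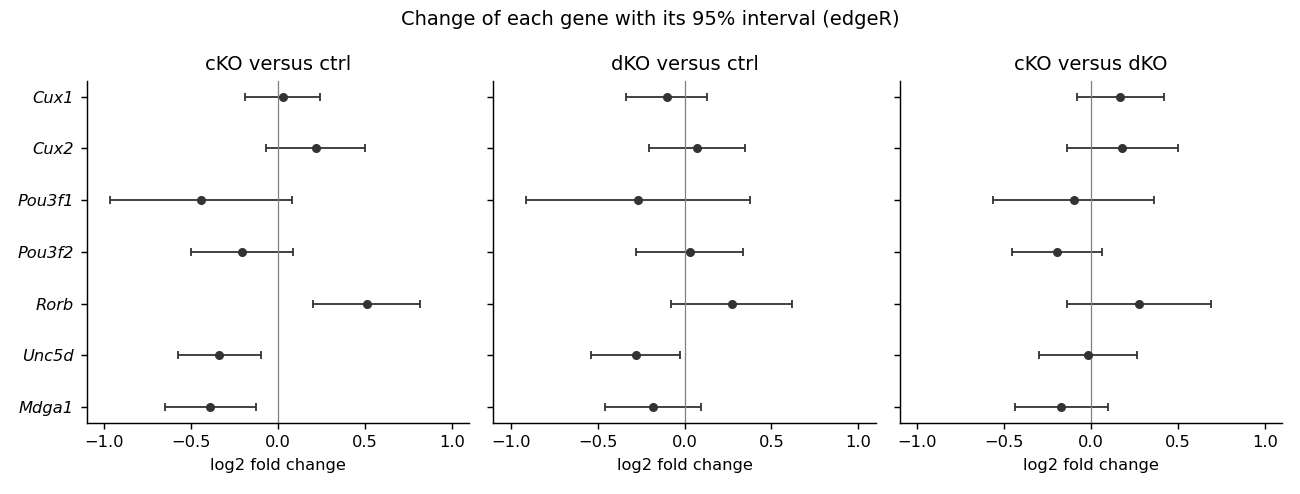
Log2 fold change of each measured member (points) with its 95% interval (bars, from the standard error) in the 3 comparisons (panels). The interval lies off 0 for *Rorb*, *Unc5d* and *Mdga1* in cKO versus ctrl and for *Unc5d* in dKO versus ctrl, before any adjustment over genes, and for no member in cKO versus dKO.

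Between cKO and dKO, none of the 8 genes was called, where 0.052% of genes were, and none was at an unadjusted p below 0.05 (6.62% of genes with at least 10 counts). The median over the 7 members was −0.02, against 0.02 over all such genes. Batch 3 held all 4 dKO mice and only 1 cKO mouse, and the other 3 cKO mice were in batch 1. Batch and genotype can therefore hardly be told apart here. *Cux1* was the only member whose groups did not overlap. Its cKO mice were between 556 and 585 CPM and its dKO mice between 491 and 521 CPM, a log2 fold change of 0.17 (SE 0.13, 95% interval from −0.08 to 0.42, edgeR FDR of 1). The two-sided exact permutation p was 0.0286, the smallest that 4 against 4 allow. Of genes with at least 10 counts, 2.47% had every cKO mouse above every dKO mouse, a share for this direction alone. The deep-layer genes *Bcl11b* (log2 fold change of 0.24) and *Tbr1* (0.245) had this pattern too, and *Fezf2* (0.12) did not. Of 12 deep-layer genes, 10 were above 0 and 2 below in cKO versus dKO, with a median of 0.24 and none called. The split is therefore not particular to an upper-layer gene. Within batch 3, with 1 cKO mouse, the log2 fold change of *Cux1* was 0.14. The antisense gene Gm16599 was at 5.39 ± 7.62 CPM in dKO (SD, n = 4) and 0.845 ± 0.265 in cKO (SD, n = 4), with 86 counts in dKO mouse F7 alone (log2 fold change of −2.82, edgeR FDR = 0.0892). Its part in the *Cux1* value was not tested. *Unc5d* was at almost the same level in both mutants, with a log2 fold change of −0.02 and a 95% interval from −0.30 to 0.26. *Rorb* gave 0.28 (95% interval from −0.14 to 0.69), and 0.55 without dKO mouse F7. *Mdga1* (−0.17) and *Pou3f2* (−0.20) were lower in cKO than in dKO with intervals that hold 0, and their exact permutation p was 0.0571 each.

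No member had a difference between the sexes in the cKO effect at an FDR below 0.05 in edgeR's interaction test, where 0.0173% of all genes were called and in which the term for *Rorb*, male minus female, was 0.35 (unadjusted p = 0.219, edgeR FDR of 1). Over the 15 mice the members did not go together as one group, as a description without a test. Pearson's r of log2 CPM was 0.617 for *Unc5d* and *Mdga1*, −0.648 for *Rorb* and *Mdga1* and 0.144 for *Cux1* and *Cux2*. The mean over the measured members of centred log2 CPM was between −0.33 and 0.31 in ctrl and between −0.07 and 0.08 in cKO. The protein-coding genes most like that mean over the 15 mice, of 7270 with a mean of at least 50 counts, were *Sik1* (r = 0.880), *Wbp11* (0.865), *Osbp* (0.861), *Psap* (0.859) and *Trappc3* (0.851). The points share libraries that differ in depth. The mean weighs the measured members alike, the thinly counted *Pou3f1* included. It was highest in ctrl mouse 2 (0.31), where *Pou3f1* was at 33.6 CPM from 20 counts, and lowest in ctrl mouse T3 (−0.33), where *Pou3f1* had 1 count. How far these correlations follow *Pou3f1* and not the set was not tested.

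Other genes of upper-layer cells were also mixed. Of 14, 1 was called in cKO versus ctrl, *Lhx2*, a LIM homeobox gene that progenitors express as well. *Lhx2* fell from 128 ± 30.6 CPM in ctrl (SD, n = 7) to 81.9 ± 18.3 in cKO (SD, n = 4), a log2 fold change of −0.69 (SE 0.17, edgeR FDR = 0.0337). Of the 14, 9 were above 0, and the median was 0.10. In dKO versus ctrl and in cKO versus dKO, 0 of the 14 were called by edgeR's likelihood ratio test, with 1 and 0 of them at an unadjusted p below 0.05.

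None of 12 receptors, ligands and partners of UNC5D and MDGA1, among them the FLRT, UNC5 and neuroligin families, was called by edgeR in any comparison. In cKO versus ctrl, *Unc5c*, *Flrt2* and *Mdga2*, named after their values were seen, passed an unadjusted p of 0.05, all above 0, and the median was 0.10. Of 10 relatives of the transcription factors, 1 was called, *Onecut2*, another CUT-homeobox gene. *Onecut2* fell from 31.1 ± 5.63 CPM in ctrl to 16.8 ± 5.39 in cKO (log2 fold change of −0.89, SE 0.21, edgeR FDR = 0.0326) and was at 17.6 ± 1.94 CPM in dKO (−0.86, standard error 0.22, edgeR FDR = 0.1075). *Pou3f4*, the X-linked POU relative, was at 18.2 ± 3.30 CPM in cKO and 12.7 ± 3.05 in ctrl (0.51, standard error 0.23, edgeR FDR = 0.852).

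Deep-layer genes were set beside them. None of 12 deep-layer genes was called in cKO versus ctrl, with 9 above 0, 3 below and a median of 0.14. At an unadjusted p below 0.05 stood *Ldb2* (0.44, edgeR FDR = 0.517) and *Nfia* (−0.47, edgeR FDR = 0.211), both named after their values were seen. *Bcl11b*, of layer 5, gave 0.25 (SE 0.13), *Fezf2*, of subcerebral neurons, gave 0.20 (SE 0.21) and *Tbr1*, of layer 6, gave 0.14 (SE 0.11), each at an edgeR FDR of 1. Of 6 subplate genes 1 was called, *Lpar1*, which fell from 42.3 ± 13.5 to 21.3 ± 10.5 CPM in cKO (−1.03, standard error 0.26, edgeR FDR = 0.0497). None of 9 pan-excitatory genes was called in any comparison by edgeR.

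Among the genes of other cells in the tissue, 3 of 10 intermediate progenitor genes were called lower in cKO than in ctrl. Of 15 interneuron genes, 2 were called higher, where 0.16% of all genes were called in either direction. All 10 intermediate progenitor genes were below 0 with a median of −0.46, and those called were *Eomes*, *Neurog2* and *Rhbdl3*. *Eomes*, the T-box factor of these cells, fell from 73.6 ± 16.4 CPM in ctrl to 35.05 ± 9.48 in cKO (−1.13, standard error 0.18, edgeR FDR = 5.06e-06) and was at 53.6 ± 13.2 in dKO (−0.51, edgeR FDR = 0.919). All 11 radial glia genes with at least 10 counts were below 0 and none was called. All 15 interneuron genes were above 0 and 2 were called, *Gad1* (0.56, edgeR FDR = 0.0408) and *Erbb4* (0.56, edgeR FDR = 0.0361). The summed level of the 15 was between 3751 and 5133 CPM in cKO, 2676 and 3253 in ctrl and 2886 and 3323 in dKO. The cKO values did not overlap the others, but *Erbb4* alone made up most of the mean sum in each group. It was at 2581 ± 579 CPM in cKO (SD, n = 4), 1723 ± 199 in ctrl (SD, n = 7) and 1763 ± 146 in dKO (SD, n = 4). How often the sum of a gene list parts the groups in this way was not tested. None of the 15 was at 0 in any group. The summed level of the 10 intermediate progenitor genes was between 564 and 767 CPM in cKO, 704 and 908 in ctrl and 590 and 718 in dKO, so that the groups overlapped. The part of either list in the lower *Unc5d* and *Mdga1* and the higher *Rorb* of cKO was not tested. In dKO versus ctrl, 9 of the 10 intermediate progenitor genes were below 0 with a median of −0.48, near that of cKO. At an unadjusted p below 0.05 in edgeR stood 5 of the 10 in each comparison with ctrl. Over genes with at least 10 counts, 10.2% did so in cKO and 6.88% in dKO. Of the 15 interneuron genes, 13 were above 0 in dKO versus ctrl with a median of 0.11, against 0.43 in cKO. In dKO versus ctrl none was called in either list.

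**Figure D5:**
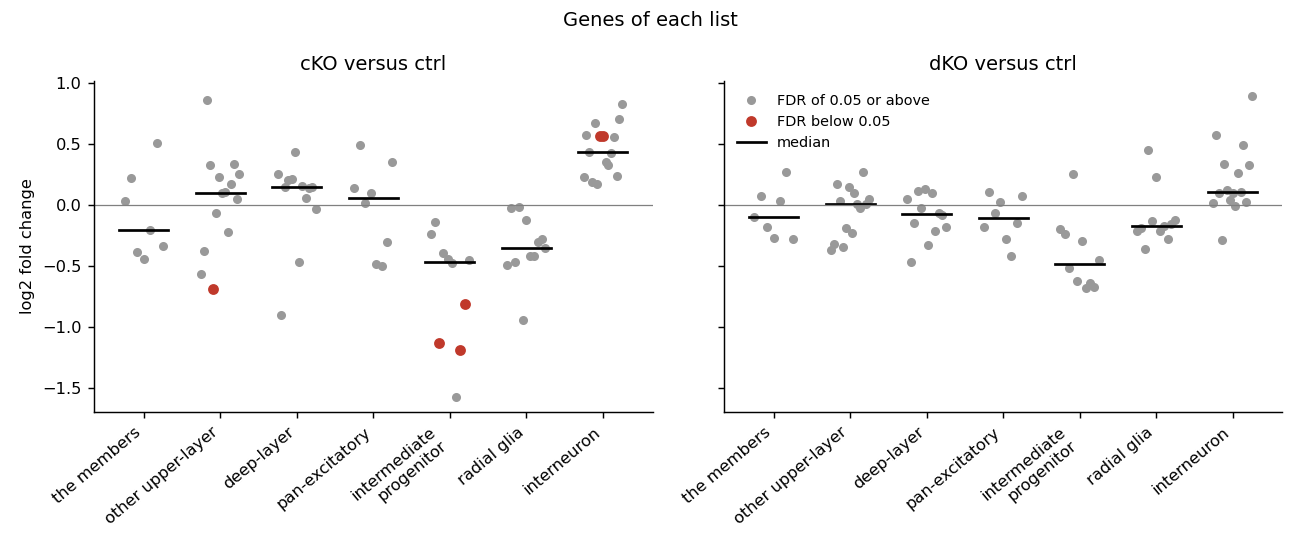
Log2 fold changes (y axis) of single genes (points) in lists of cell type genes (x axis) for cKO versus ctrl and dKO versus ctrl, with medians as black lines and genes at an FDR below 0.05 in red. In cKO the members spread from −0.44 to 0.51, while all 10 intermediate progenitor genes are below 0 and all 15 interneuron genes above it. In dKO, 9 of the 10 intermediate progenitor genes are below 0 and 13 of the 15 interneuron genes above it.

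Thalamic genes, which matter for *Rorb* because thalamus also expresses it, were between 113 and 220 CPM summed in cKO and between 177 and 314 in ctrl over 6 genes, all 6 below 0 in cKO versus ctrl. None of the 6 was at 0 in any group. Striatal and lateral ganglionic eminence genes summed to between 3047 and 3777 CPM in cKO and between 2128 and 3397 in ctrl, with 12 of 12 above 0 and none called. Most of the mean sum was *Meis2*, at 2061 ± 128 CPM in cKO and 1917 ± 196.5 in ctrl. Microglial genes were low, with sums of 17.0 to 31.9 CPM in cKO and 7.06 to 26.9 in ctrl and 1 of 10 called, *Lcp2* (2.78, edgeR FDR = 0.00481). Endothelial and pericyte genes summed to 113 to 140 CPM in cKO and 97.8 to 142 in ctrl, and oligodendrocyte precursor genes to 18.0 to 25.6 and 17.4 to 33.3 CPM, with none called in either list. Meningeal genes reached 65.4 CPM in 1 ctrl mouse and 80.4 in 1 dKO mouse and at most 8.18 in cKO, with 1 of 7 called, *Aldh1a2* (−4.31, from 23 counts over all mice, edgeR FDR = 0.0408). Globin and red cell genes summed to 17.3 to 21.9 CPM in cKO, 9.41 to 21.8 in ctrl and 23.1 to 31.1 in dKO, with *Hba-a2* called in dKO versus ctrl (1.98, edgeR FDR = 0.0203). The part of these lists in the members' values was not tested. The 5 p53 target genes were all called higher in cKO than in ctrl and than in dKO. Their sums were 142 to 200.5 CPM in cKO, 51.75 to 91.1 in ctrl and 64.65 to 76.8 in dKO. The study picked them from these libraries, so their direction is no independent evidence. *Eomes*, *Neurog2*, *Gad1*, *Erbb4*, *Lcp2* and *Aldh1a2* in cKO, and *Hba-a2* in dKO, were also listed by the study as changed in these libraries. Their calls are no independent evidence either.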

How the data were processed

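RNA was from the cortex of 15 mice (16 libraries). The authors deposited whole-number counts of unique molecular identifiers per gene, not normalised. The submitters' processing notes name bcl2fastq 2.17, cutadapt 1.13, STAR 2.5.2a, UMI-tools 0.5.3, HTSeq 0.6.1p1 and edgeR 3.18.1, and the genome build mm10. The annotation release is not given in the sources used here, and GENCODE M21 (GRCm38) supplied names for 51719 of 51912 identifiers. Lines that name no gene, 21.6% to 38.7% of a library, were left out of totals, and S2 and S2b were summed.

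Counts were fitted in edgeR 4.0.16 (R 4.3.3) with TMM factors and likelihood ratio tests, after the study's methods, on all genes with Benjamini-Hochberg adjustment (FDR below 0.05). This test was used in place of the quasi-likelihood F test, which was an alternative with DESeq2 1.42.0. The 95% intervals come from standard errors that use edgeR's dispersions. These borrow information from all genes, so an interval does not measure the spread between mice of that gene alone. Exact permutation tests over mice were two-sided, over 21 member comparisons, and not adjusted. Named genes were the members, list genes that were called, *Bcl11b*, *Fezf2*, *Tbr1*, *Pou3f4*, *Eomes*, *Knl1*, *Trp53* and the 5 protein-coding genes most like the members' mean; any other was chosen after its values were seen, and 1 result is not reported here. Scripts were tested on simulated data. The members and lists were chosen with earlier results of these data known.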

Additional observations from a re-analysis of the deposited data

Results flagged for a closer look

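Of 21 Dixon ratio tests for an outlying mouse, each on 1 member in 1 group, 2 passed the critical value, where chance gives about 1 in 20. *Pou3f1* in ctrl mouse 2 was at 33.6 CPM, from 20 counts, against 2.22 to 14.9 CPM in the rest of the group. *Rorb* in dKO mouse F7 was at 225 CPM, while the other dKO mice were between 118 and 136 CPM. The ratio was 0.597 for *Pou3f1* against a critical value of 0.568. For *Rorb* it was 0.8296 against 0.829, so this one only just passed.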

How the results depend on the processing

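Over all alternatives, 476 values of single members kept their direction and their side of the FDR threshold, 5 passed it and 23 changed sign. Members called in cKO versus ctrl were 0 as reported, 1 with the quasi-likelihood F test, 2 with DESeq2, and 0 to 1 when 1 mouse was left out. In cKO versus ctrl, *Cux1* turned to −0.025 with DESeq2, −0.022 with RLE size factors, −0.077 with total counts alone, −0.027 with filtered genes and −0.056 after thinning, and *Pou3f1* to 0.15 after thinning. In dKO versus ctrl, *Pou3f1* turned to 0.51 with batch as covariate, 0.72 with litter as covariate, 0.51 in batch 3, 0.77 in litter 3 and 0.22 after thinning, *Rorb* to −0.041 with litter as covariate and −0.033 in litter 3, and *Pou3f2* to −0.0085 with total counts alone and between −0.065 and 0.13 with 1 mouse left out (−0.065 without ctrl 6, −0.015 without dKO T2). In cKO versus dKO, *Cux2* turned to −0.0052 with batch as covariate and −0.0054 in batch 3, *Unc5d* to 0.060 and 0.061, and with 1 mouse left out *Unc5d* was between −0.066 and 0.047 (0.016 without cKO 5, 0.047 without dKO F7) and *Pou3f1* between −0.22 and 0.0027 (highest without dKO T8). The median over members in cKO versus dKO, −0.018 as reported, was −0.075 with DESeq2, −0.072 with RLE size factors, −0.13 with total counts alone, −0.080 with filtered genes, −0.063 in litter 4, −0.15 after thinning and between −0.048 and 0.047 with 1 mouse left out. The cause was not tested.

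Genes called overall were 13 to 373 in cKO versus ctrl, 3 to 113 in dKO versus ctrl and 1 to 184 in cKO versus dKO, against 83, 26 and 27 as reported. No paired analysis was possible by replicate number, because the mouse names give the groups no shared numbers. With litter as a covariate, 0 members were called in each comparison. Depth limits *Pou3f1* most, with 1 to 47 counts per ctrl mouse.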
